A study of Mus musculus with 12 samples.

Results

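The genes described here are 10 immediate early genes of the NR4A, EGR and AP-1 families, namely Nr4a1, Nr4a2, Nr4a3, Egr1, Egr2, Egr3, Fos, Fosb, Jun and Junb, out of 35275 genes in the expression table. They were chosen by name as genes that mark a recent T cell receptor signal or the handling of cells, and each name matched 1 gene. All 10 passed the filter for testing, an average FPKM of 0.5 or more across the 12 libraries, as did 13115 genes in all. FPKM is a fragment count divided by the length of the transcript and by the depth of the library.

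CD4+ T cells came from female mice by negative magnetic sorting, with 1 RNA-Seq library per mouse and 3 mice in each of 4 groups. The figure legend gives the mice as 9 to 12 weeks old, and the methods for these libraries give 9 weeks. B6 is the C57BL/6 strain (C57BL/6J in the methods), and SLE123 is a lupus-prone congenic strain that carries the Sle1, Sle2 and Sle3 regions of NZM2410 on the B6 background. Treated mice of both strains received anti-CD45RB, the monoclonal antibody MB23G2 against an isoform of the phosphatase CD45, in 5 injections of 100 µg between day 0 and day 7, and untreated mice of both strains received none. The methods also describe a later sort into CD25+ and CD25- cells, whereas the sample titles name no such fraction, and they state that the cells were frozen before RNA was made. Each mouse is a separate sample, so p-values below measure the spread between mice.

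Immediate early genes are transcribed within minutes of a signal, from factors that are already in the cell, and their transcripts are short-lived. In T cells, calcium and MAP kinase signals below the antigen receptor switch on EGR1, EGR2 and EGR3, which are zinc finger factors, the orphan nuclear receptors of the NR4A family, and the FOS and JUN proteins, which pair as AP-1. Egr2, Egr3 and the NR4A genes are also known as restraints on T cell activation, and Fos, Jun and their relatives are known to rise when tissue is dissociated.

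In B6 mice, Egr1, Egr2, Egr3, Nr4a3 and Junb were lower after anti-CD45RB, by 25.5% to 42.4% of the untreated mean. No member passed the test between treated and untreated SLE123 mice. Egr2 was 3.13-fold higher in untreated SLE123 than in untreated B6 mice and 4.87-fold higher in treated mice, and Nr4a2, Egr1 and Fosb were also higher in SLE123 under both conditions. Jun did not pass the test in any comparison. These values come from limma on log2(FPKM + 1), with a gene called at a Benjamini-Hochberg adjusted p under 0.05 over all genes tested.

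The regulatory sequence of these genes is shown because the CRE, the palindrome TGACGTCA bound by CREB and ATF1, is a classical element of immediate early promoters. RefSeq windows of 250 bases before a transcription start (GRCm38.p6) were matched for 8 of the 10 genes, in 12 windows, and Egr1 and Egr3 were not matched. The first 5 letters of the CRE, TGACG, were found on either strand in 9 of these 12 windows, which belong to 7 of the 8 genes, against 17.8% of all 32851 RefSeq windows. Jun was the gene without it. The Nr4a1, Nr4a2 and Nr4a3 windows each held 4 copies, a number reached by 0.137% of all windows. The whole CRE was in none of the 12 windows and in 1.55% of all windows. In the sequences that follow, written 5′ to 3′ on the strand of the gene, capitals mark TGACG or its reverse complement CGTCA.
Nr4a1: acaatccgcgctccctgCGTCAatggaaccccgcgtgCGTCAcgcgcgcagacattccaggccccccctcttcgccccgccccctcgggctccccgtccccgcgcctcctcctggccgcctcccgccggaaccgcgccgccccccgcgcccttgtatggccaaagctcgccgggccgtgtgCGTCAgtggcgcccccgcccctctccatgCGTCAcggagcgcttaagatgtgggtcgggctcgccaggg
Nr4a2: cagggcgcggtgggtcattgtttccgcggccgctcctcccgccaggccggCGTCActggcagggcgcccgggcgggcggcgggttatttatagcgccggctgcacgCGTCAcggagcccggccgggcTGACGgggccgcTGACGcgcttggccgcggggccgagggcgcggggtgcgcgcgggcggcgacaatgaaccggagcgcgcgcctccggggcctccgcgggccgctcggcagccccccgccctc
Nr4a3: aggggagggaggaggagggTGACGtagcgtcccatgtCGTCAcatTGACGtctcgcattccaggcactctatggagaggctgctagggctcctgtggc
Egr2: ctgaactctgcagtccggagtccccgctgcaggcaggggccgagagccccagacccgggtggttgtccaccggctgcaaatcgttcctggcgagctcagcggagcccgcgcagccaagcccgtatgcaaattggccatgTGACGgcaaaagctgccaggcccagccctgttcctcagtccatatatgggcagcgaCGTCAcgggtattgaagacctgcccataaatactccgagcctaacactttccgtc
Fos: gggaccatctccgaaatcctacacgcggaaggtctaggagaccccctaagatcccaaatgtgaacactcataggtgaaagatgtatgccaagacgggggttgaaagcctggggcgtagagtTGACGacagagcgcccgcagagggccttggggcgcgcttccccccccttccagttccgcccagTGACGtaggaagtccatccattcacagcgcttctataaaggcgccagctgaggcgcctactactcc
Fosb: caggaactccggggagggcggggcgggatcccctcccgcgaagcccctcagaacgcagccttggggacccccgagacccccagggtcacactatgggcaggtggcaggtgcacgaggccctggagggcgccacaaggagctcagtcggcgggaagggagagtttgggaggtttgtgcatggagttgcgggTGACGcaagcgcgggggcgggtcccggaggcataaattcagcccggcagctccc
The Nr4a1 stretch is chr15:101266596-101266845 on the plus strand, which lies within the annotated gene span (chr15:101254269-101274795), before a start inside the gene and outside any annotated exon. That of Nr4a2 is chr2:57124004-57124253 on the minus strand, and that of Nr4a3 is chr4:48045055-48045152 on the plus strand, shortened to the 98 bases before the first annotated exon, which hold 3 of the 4 copies. Egr2 has 5 annotated starts whose windows partly overlap, and the stretch shown is chr10:67537619-67537868 on the plus strand, free of exons within the gene span (chr10:67535475-67542188). It holds 2 copies of TGACG and a CArG box, the site of serum response factor, which was in 4 of the 5 Egr2 windows, in no window of the other members and in 1.47% of all windows. Overlapping Egr2 windows share the same CArG box and the same copies of TGACG. The counts of windows, here and for TGACG above, are therefore not counts of separate sites. The Fos stretch is chr12:85473640-85473889 on the plus strand with 2 copies, and the Fosb stretch is chr7:19310052-19310295 on the minus strand with 1 copy. The EGR site GCGNGGGCG was in windows of 3 members, Nr4a1, Nr4a2 and Fosb, against 4.70% of all windows, while the AP-1 site TGANTCA (6.75% of all windows) and the NR4A site AAAGGTCA (1.34%) were in none. These are matches of letters in the reference sequence. Binding was not measured.

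The remaining members lie on chr4:95049034-95052222 (Jun, a single exon, minus strand), chr8:84974484-84978718 (Junb, minus strand), chr18:34859823-34864984 (Egr1, plus strand) and chr14:70077203-70082614 (Egr3, plus strand). Jun shares exon bases with the antisense transcript Junos, which reached 1.24 FPKM at most, and Junb shares them with Prdx2 on the opposite strand, which reached 62.4 FPKM. Whether the counting used strand is not given in the sources used here, so reads of these overlapping parts cannot be assigned to either gene with certainty.

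Libraries held 13563594 to 23642949 fragments, and the members were covered by 46 to 14457 fragments per library. Fragment numbers were recovered from the steps between FPKM values, and all libraries gave whole fragments (within 0.02) for 100% of the 23230 genes that were above 0. For a 2000-base transcript, 3 fragments amount to 0.0634 to 0.111 FPKM. This limit, like the fragment numbers, covers counting error only. T cell markers were high in every library (Cd3e 274 to 401 FPKM, Cd4 237 to 327 FPKM) and Cd8a stayed at or under 1.92 FPKM. Cd8b1, the other CD8 marker, was at 10.9 to 17.4 FPKM in B6 and 3.88 to 7.33 FPKM in SLE123 mice. Markers of other cell types were at unequal levels. The summed level of 8 B cell markers was 6.63 to 7.83 FPKM in untreated B6, 28.0 to 36.6 in treated B6, 69.3 to 259 in untreated SLE123 and 41.3 to 65.1 in treated SLE123 mice. Immunoglobulin genes took 0.0966% to 0.358% of fragments in B6 libraries and 2.63% to 12.8% in SLE123 libraries.

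A few libraries stood apart. The liver transcript Alb was at 24.7 to 30.7 FPKM in the 6 B6 libraries and at 28.2 FPKM in treated SLE123 replicate 1, and at 0.0296 FPKM or less in the other SLE123 libraries. Treated SLE123 replicates 2 and 3 were the most alike pair of all, with a chi-square per gene of 2.42 between them, which is above sampling noise, against 3.24 to 5.79 for pairs of B6 replicates and 21.5 to 77.03 for the other SLE123 pairs. They were counted as 2 mice. Untreated SLE123 replicate 3 had the highest sums of B cell (259 FPKM) and plasma cell markers (5077 FPKM). The tests were repeated without each library in turn. Alb thus separated the strains in 11 of 12 libraries, and strain cannot be told apart from whatever set this transcript. Whether treated SLE123 replicate 1 shared a step with the B6 libraries or carries the wrong label was not tested, and its immunoglobulin share of 2.63% lay above all B6 libraries.

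**Figure D1:**
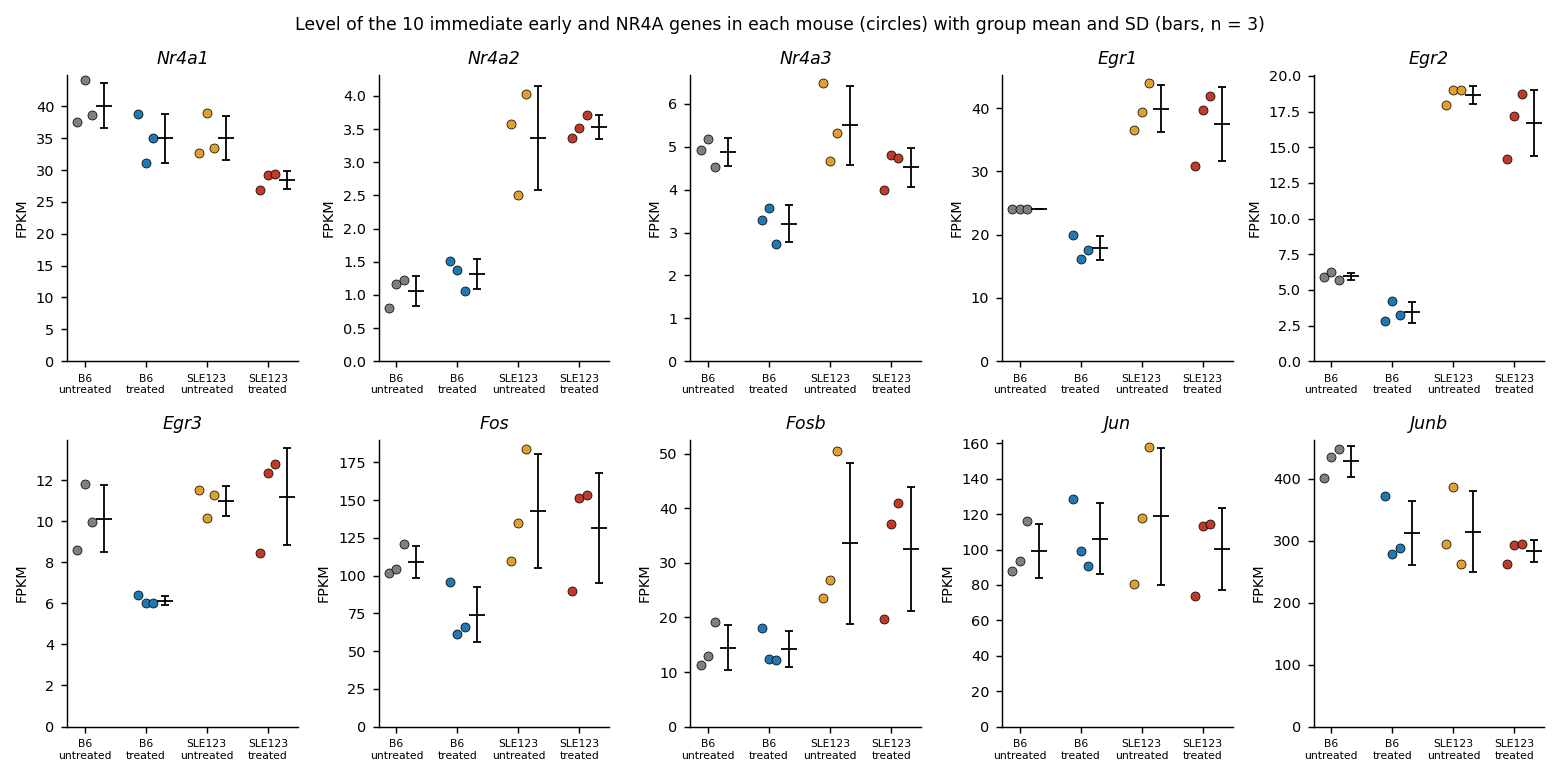
Level of each of the 10 genes in FPKM (vertical axes, starting at 0) in untreated B6, treated B6, untreated SLE123 and treated SLE123 mice, with 1 circle per mouse and bars for the group mean and SD (n = 3). Egr1, Egr2, Nr4a2 and, by a narrow margin, Fosb of SLE123 mice lie above every B6 mouse. Egr1, Egr2, Egr3, Nr4a3, Fos and Junb of treated B6 mice lie below every untreated B6 mouse.

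Levels covered a wide range. In untreated B6 mice, Junb had the highest mean FPKM (428 ± 24.8, SD, n = 3), followed by Fos (109 ± 10.6) and Jun (99.2 ± 15.0), whose ranges overlapped. Nr4a1 (40.1 ± 3.51), Egr1 (24.0 ± 0.0508) and Fosb (14.4 ± 4.15) came next. Egr3 (10.1 ± 1.63) overlapped Fosb, and Egr2 (5.96 ± 0.264), Nr4a3 (4.88 ± 0.332) and Nr4a2 (1.06 ± 0.228) closed the order without overlap between neighbours. In SLE123 mice the order of Egr2 and Egr3 was the other way round, with untreated means of 18.7 ± 0.611 and 11.0 ± 0.732 FPKM. Egr1 ranked above Nr4a1 there, with overlapping ranges in untreated mice (39.9 ± 3.73 and 35.0 ± 3.42 FPKM). In treated SLE123 mice the ranges of Egr1 and Nr4a1 did not overlap (30.9 to 41.9 and 26.9 to 29.3 FPKM). FPKM divides by transcript length, and the length implied by the table was shorter than the annotated exons for some members, with 1416 against 4406 bases for Egr3 and 3751 against 6243 bases for Fosb, so the order between genes depends on the annotation used.

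Treatment of B6 mice was compared first, on 3 treated against 3 untreated mice. Of the 10 members, 5 were called and all 5 were lower, whereas 14.9% of all genes tested were called in either direction and 6.12% were called lower. In 6 members every treated mouse lay below every untreated mouse, which held for 18.6% of all genes tested. The median log2 fold change of the members was -0.44 and that of all genes was -0.0024. In the same comparison 7 of 8 B cell markers were called higher, as were 3 of the 4 tested markers of monocytes and macrophages and 4 of the 6 of basophils and mast cells, while 2 of 9 T cell markers were called lower. Tested markers of NK cells (3 of 5), dendritic cells (3 of 4), neutrophils (3 of 5) and platelets (3 of 3) were also called higher. Naive T cell markers were called lower in 2 of 5, and activated and memory markers higher in 2 of 7. The sums of the activated and memory markers were 178 to 204 FPKM in untreated and 241 to 256 FPKM in treated B6 mice. The summed level of the monocyte and macrophage markers was 8.505 to 14.5 FPKM in untreated and 39.1 to 113 FPKM in treated B6 mice, and that of the basophil and mast cell markers was 3.47 to 4.33 and 13.4 to 30.1 FPKM. No marker of these lists was at 0 in all mice of a group. Fewer cells of a type and less RNA per cell cannot be told apart in bulk RNA, and the part of these cells in the members' values was not tested.

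Egr2, a zinc finger factor known for restraining activated T cells, was at 5.94, 6.23 and 5.70 FPKM in untreated B6 replicates 3, 4 and 5 and at 2.83, 4.22 and 3.23 FPKM in treated replicates 1, 3 and 5. All treated mice were lower and the groups did not overlap. Its log2 fold change was -0.66 (SE 0.12, limma adjusted p = 0.016). Egr3, its close relative, was at 8.58, 11.8 and 9.96 FPKM in untreated and 6.40, 6.00 and 6.00 FPKM in treated mice. The treated mice were close to each other and below all untreated mice, and the log2 fold change was -0.63 (SE 0.11, limma adjusted p = 0.0134). Egr1, the member of the family that responds most broadly to growth and antigen signals, was at 24.1, 24.0 and 24.0 FPKM in untreated and 19.96, 16.2 and 17.6 FPKM in treated mice. Again the groups were separate, with a log2 fold change of -0.41 (SE 0.07, limma adjusted p = 0.0149). The spread of Egr1 among untreated mice, a CV of 0.211%, was far smaller than that of the other members of that group (4.44% to 28.8%). These libraries held 1735 to 1946 fragments of Egr1, whose counting error alone exceeds that CV. The closeness of these values is therefore not read as a trait of Egr1.

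Among the orphan receptors, Nr4a3 fell from 4.92, 5.19 and 4.53 FPKM in untreated B6 to 3.30, 3.58 and 2.73 FPKM with treatment. No values overlapped, and the log2 fold change was -0.49 (SE 0.10, limma adjusted p = 0.0217). Nr4a1, whose product is also called NUR77 and serves as a reporter of antigen receptor signals, was at 37.6, 44.1 and 38.7 FPKM without and 38.8, 31.1 and 35.0 FPKM with treatment. These ranges overlapped, and the log2 fold change of -0.19 (95% interval -0.41 to 0.02) did not pass the test. Nr4a2, the lowest of the 10, was at 0.799, 1.16 and 1.22 FPKM in untreated and 1.51, 1.37 and 1.07 FPKM in treated mice, also with overlap (log2 fold change 0.17, 95% interval -0.11 to 0.45).

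Junb, a JUN protein that pairs with FOS and BATF proteins, was at 400.5, 434 and 449 FPKM in untreated and 372, 278 and 288 FPKM in treated B6 mice. Treated replicate 1 was closest to the untreated mice but still below them, and the log2 fold change was -0.46 (SE 0.11, limma adjusted p = 0.0354). Fos was at 102, 104 and 121 FPKM in untreated and 95.4, 61.5 and 65.7 FPKM in treated mice. It did not overlap between groups, yet its log2 fold change of -0.57 (SE 0.16) missed the threshold (limma adjusted p = 0.0583), with treated replicate 1 well above the other treated mice. Fosb (log2 fold change -0.01, 95% interval -0.51 to 0.50) and Jun (0.09, 95% interval -0.26 to 0.44) overlapped between groups.

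Leaving out 1 mouse at a time, Junb was called in 1 of 6 repeats, and the number of members called in B6 was 1 to 6. Egr3 was called in each of the 6 repeats (limma adjusted p 0.0134 to 0.0487), while without treated replicate 5, untreated replicate 3 or untreated replicate 4 no member other than Egr3 was called, and the highest adjusted p-values were 0.0598 for Egr1, 0.0672 for Egr2, 0.0822 for Nr4a3 and 0.114 for Junb. Without treated replicate 1, Fos was called as well (adjusted p = 0.00821). The direction of the 5 called members was the same in all repeats. With the spread estimated from all 12 libraries, 3 members were called, Nr4a3, Egr2 and Egr3.

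**Figure D2:**
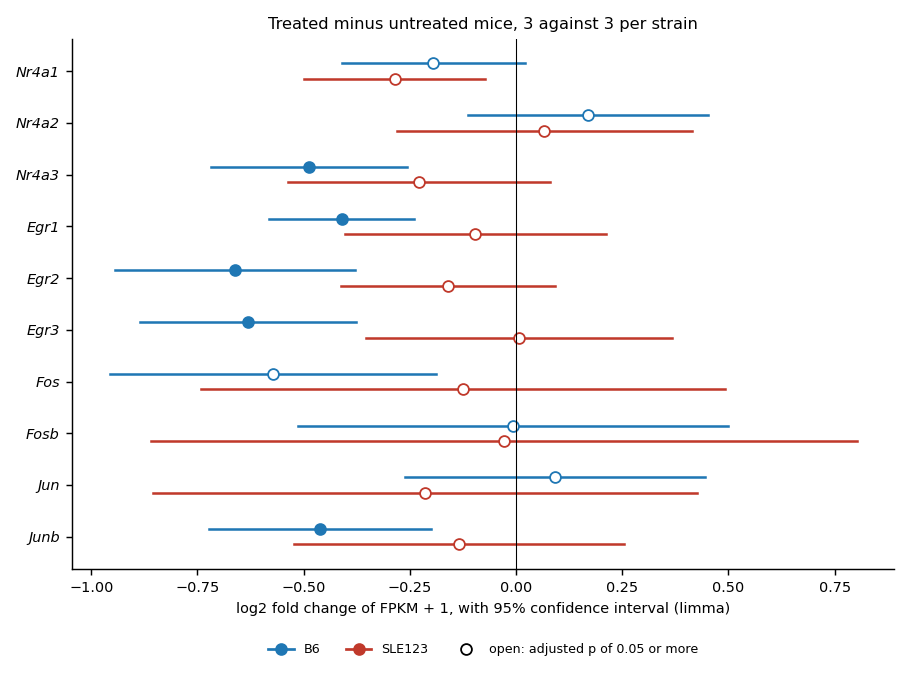
Log2 fold change of FPKM + 1 between treated and untreated mice (horizontal axis) with its 95% confidence interval from limma, for each of the 10 genes in B6 (blue) and SLE123 (red), where filled circles passed an adjusted p of 0.05. Filled circles are in B6 alone, at Nr4a3, Egr1, Egr2, Egr3 and Junb, and every SLE123 interval except that of Nr4a1 includes 0.

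In SLE123 mice, 3 treated against 3 untreated, none of the 10 members was called by limma, where 0.0381% of all genes tested (5 genes) were. Of the cell type markers, 2 of 6 for basophils and mast cells were called lower, and none of another list was called. Their sums were 97.2 to 109 FPKM in untreated and 29.4 to 37.0 FPKM in treated mice. Estimates were positive for 0 of 8 B cell, 0 of 5 neutrophil and 5 of 5 naive T cell markers. The part of these cells in the members' values was not tested. With an unadjusted p under 0.05 there was 1 member, Nr4a1, and limma's voom method on the recovered fragments also called 0 members. Nr4a1 was the sole member whose groups did not overlap, against 19.7% of all genes tested in either direction, at 32.6, 38.9 and 33.5 FPKM in untreated replicates 1, 2 and 3 and 26.9, 29.3 and 29.3 FPKM in treated replicates 1, 2 and 3. Its log2 fold change was -0.29 (SE 0.09, limma adjusted p = 0.453). Intervals for the other members were wide enough to hold changes of the size found in B6 for Fos and Junb, with -0.74 to 0.49 for Fos and -0.52 to 0.26 for Junb. They were narrower for Egr2 (log2 fold change -0.16, 95% interval -0.41 to 0.09) and Egr3 (0.01, 95% interval -0.35 to 0.37), which both lay above the B6 estimates of -0.66 and -0.63.

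Egr2 was at 17.96, 19.0 and 19.0 FPKM in untreated SLE123 mice and at 14.2, 17.2 and 18.7 FPKM in treated ones, where replicate 1 was the lowest. Egr3 was at 11.5, 10.2 and 11.3 FPKM in untreated and 8.47, 12.4 and 12.8 FPKM in treated mice, again with replicate 1 the lowest. Treated SLE123 replicate 1, the library with liver transcripts, was the lowest of its group for all 10 members. Without it, the log2 fold changes of Egr1, Fos and Fosb turned from negative to positive (0.03, 0.13 and 0.29), and still no member was called.

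The difference between the strains in their response was tested as an interaction over the 12 libraries, which subtracts the change in B6 from the change in SLE123. No member was called by limma, where 3.64% of all genes tested were, and 2 members, Egr2 and Egr3, had an unadjusted p under 0.05. Voom on the recovered fragments likewise called 0 members. The interaction was 0.64 for Egr3 (95% interval 0.20 to 1.07, limma adjusted p = 0.0942) and 0.50 for Egr2 (95% interval 0.14 to 0.87, limma adjusted p = 0.106). Without treated SLE123 replicate 1, Egr3 was called (log2 0.81, limma adjusted p = 0.0232), and after rescaling of each library to TPM, Egr2 and Egr3 were called. A call in B6 and none in SLE123 therefore does not show that the strains differed in these genes.

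Untreated mice of the strains were compared next. Of the 10 members 4 were called higher in SLE123, against 22.8% of all genes tested, and 0 were called lower, against 20.1%. The median log2 fold change of the members was 0.29 and that of all genes was -0.03. Of all called genes 53.2% were higher in SLE123, and after rescaling to TPM 24.3% were, with a median of all genes at -0.38, whereas Egr1, Egr2 and Nr4a2 were called higher in each of the 7 alternatives and the 6 repeats that left out a mouse. These comparisons share mice with those of treatment, since each group of 3 enters 2 of the 4 comparisons of pairs of groups. Activated and memory T cell markers were called higher in SLE123 (7 of 7), regulatory T cell markers too (4 of 5), and naive T cell markers lower (5 of 5). The sums of activated and memory markers were 178 to 204 FPKM in B6 and 719 to 770 FPKM in SLE123 untreated mice without overlap, and those of naive markers were 1731 to 1831 and 644 to 1121 FPKM. All 8 B cell and all 6 plasma cell markers were called higher as well, with plasma cell sums of 61.6 to 81.9 and 1976 to 5077 FPKM. So were tested markers of neutrophils (5 of 5), basophils and mast cells (5 of 6), erythroid cells (3 of 3) and monocytes and macrophages (3 of 4). Neutrophil sums were 2.69 to 4.52 and 61.0 to 87.1 FPKM, and basophil and mast cell sums were 3.47 to 4.33 and 97.2 to 109 FPKM. Of 5 NK cell markers 1 was called higher and 2 lower. All 4 tested hepatocyte markers were called lower, and 3 of the 5 on that list were at 0 in all untreated SLE123 mice. The part of these cells in the members' levels was not tested.

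Egr2 differed most on the log2(FPKM + 1) scale, where a low gene such as Nr4a2 is compressed, with 5.70 to 6.23 FPKM in the untreated B6 mice and 17.96 to 19.0 FPKM in the untreated SLE123 mice given above. The groups were far apart, with a log2 fold change of 1.4996 (SE 0.08, limma adjusted p = 2.12e-05). Egr1 was at 36.5, 39.3 and 43.9 FPKM in untreated SLE123 replicates 1, 2 and 3, each above the 24.0 to 24.1 FPKM of B6 (log2 fold change 0.70, SE 0.08, limma adjusted p = 0.000734). Egr3, by contrast, overlapped between the strains (log2 fold change 0.12, 95% interval -0.17 to 0.40).

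Nr4a2, the NR4A member with the lowest level, was at 3.58, 2.504 and 4.03 FPKM in untreated SLE123 mice, each above all B6 mice, a 3.18-fold higher mean with a log2 fold change of 1.07 (SE 0.16, limma adjusted p = 0.00218). Nr4a1 (log2 fold change -0.19, 95% interval -0.43 to 0.04) and Nr4a3 (0.14, 95% interval -0.16 to 0.43) overlapped between the strains, the latter with 6.50, 4.67 and 5.32 FPKM in untreated SLE123 mice. Of the 3 NR4A genes, Nr4a2 alone passed the test between untreated mice. After rescaling to TPM, the estimate of Nr4a3 turned negative (-0.20) and Nr4a1 was called lower (-0.57, limma adjusted p = 0.00757).

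Fosb, a FOS protein, was at 11.3, 12.9 and 19.1 FPKM in untreated B6 and 23.5, 26.8 and 50.6 FPKM in untreated SLE123 mice (log2 fold change 1.12, SE 0.30, limma adjusted p = 0.0208). Its groups did not overlap, and SLE123 replicate 3, the library with the most B cell transcripts, was the highest of all 12. Without that replicate Fosb remained called, and without untreated B6 replicate 3 or 4 it was not (highest limma adjusted p = 0.0757). Junb was at 295, 387 and 262 FPKM in untreated SLE123 mice, each below the lowest B6 mouse, and its log2 fold change of -0.46 (SE 0.16) was at the threshold (limma adjusted p = 0.0502). It was called lower in 5 of 7 alternatives other than leaving out a mouse and without SLE123 replicate 2. Fos was at 109.5, 135 and 184 FPKM and Jun at 80.2, 118 and 158 FPKM in untreated SLE123 mice, and neither was called. Without untreated SLE123 replicate 1, Fos was called higher (adjusted p = 0.0304).

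**Figure D3:**
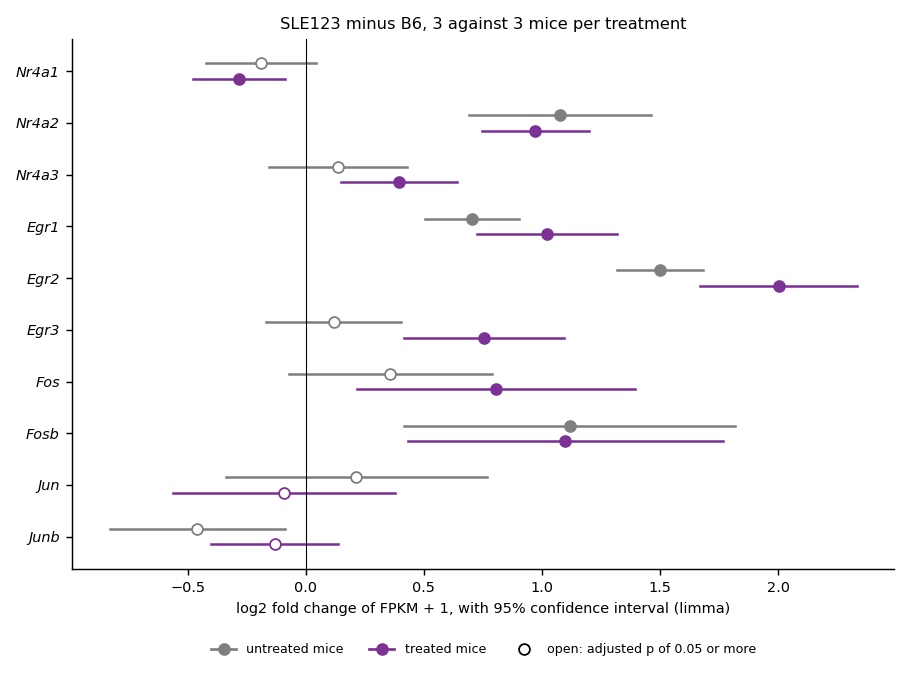
Log2 fold change of FPKM + 1 of SLE123 minus B6 (horizontal axis) with its 95% confidence interval from limma, for each of the 10 genes in untreated (grey) and treated (purple) mice, where filled circles passed an adjusted p of 0.05. Egr2 lies furthest to the right, at 1.4996 and 2.002, and Nr4a1, at -0.28 in treated mice, is the filled circle left of 0.

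Among treated mice, 7 members were called higher in SLE123 than in B6, against 29.6% of all genes tested, and 1 was called lower, against 22.5%. Their median log2 fold change was 0.78, and that of all genes was 0.03. The share of called genes that were higher was 56.8%, and 35.3% after rescaling to TPM. Naive T cell markers were again called lower (5 of 5) and activated and memory markers higher (7 of 7). B cell markers were mixed, with 4 of 8 called higher and 3 lower. All 6 plasma cell markers were called higher (sums of 98.1 to 202 FPKM in B6 and 1070 to 1957 FPKM in SLE123). Of the NK cell markers 4 of 5 were called lower (72.9 to 98.1 and 37.5 to 46.2 FPKM), as were 3 of the 4 tested monocyte and macrophage markers. The part of these cells was not tested here either.

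Egr2 was again the most different, at 2.83 to 4.22 FPKM in treated B6 and 14.2 to 18.7 FPKM in treated SLE123 mice, a log2 fold change of 2.002 (SE 0.14, limma adjusted p = 8.11e-05). Egr1 was at 30.9, 39.7 and 41.9 FPKM in treated SLE123 mice, above the highest treated B6 mouse at 19.96 FPKM (log2 fold change 1.02, SE 0.12, limma adjusted p = 0.000673). Egr3, which had not passed the test between untreated mice, was called here with a log2 fold change of 0.76 (SE 0.14, limma adjusted p = 0.00432). All 3 EGR genes were called in each of the 6 repeats that left out a mouse.

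Nr4a2 was at 3.36, 3.51 and 3.71 FPKM in treated SLE123 mice, above all treated B6 mice (log2 fold change 0.97, SE 0.10, limma adjusted p = 0.000278). Nr4a3 was at 3.998, 4.82 and 4.75 FPKM in treated SLE123 and at most 3.58 FPKM in treated B6 mice (log2 fold change 0.39, SE 0.10, limma adjusted p = 0.017). Nr4a1 went the other way, with all treated SLE123 mice at 29.3 FPKM or less and all treated B6 mice at 31.1 FPKM or more (log2 fold change -0.28, SE 0.08, limma adjusted p = 0.0253). Nr4a1 passed the test in 1 of the 6 repeats that left out a mouse, the one without B6 replicate 3, and missed it without B6 replicate 1 or 5 or any SLE123 mouse (highest adjusted p = 0.0695). Nr4a3 was lost without SLE123 replicate 2 or 3 (highest adjusted p = 0.0626) and after rescaling to TPM (adjusted p = 0.0642).

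Fosb was at 19.7, 37.2 and 40.9 FPKM in treated SLE123 and at 18.1, 12.4 and 12.3 FPKM in treated B6 mice, which just failed to overlap (log2 fold change 1.10, SE 0.28, limma adjusted p = 0.0155). Fos was at 89.6, 152 and 154 FPKM in treated SLE123 mice, of which replicate 1 lay within the B6 range (log2 fold change 0.80, SE 0.25, limma adjusted p = 0.0313). Without SLE123 replicate 1, the values were 1.41 for Fosb (adjusted p = 0.00107) and 1.06 for Fos (adjusted p = 0.00467). In the other direction, Fosb was lost without B6 replicate 5 or SLE123 replicate 2 or 3 (highest adjusted p = 0.0548), and Fos without B6 replicate 3 or 5 or SLE123 replicate 2 or 3 (highest adjusted p = 0.099). Junb, at 263, 292 and 294 FPKM in treated SLE123 mice, overlapped treated B6 (log2 fold change -0.13, 95% interval -0.40 to 0.14), as did Jun, at 73.8, 113 and 114 FPKM against 129, 99.0 and 90.8 FPKM in treated B6 mice (-0.09, 95% interval -0.56 to 0.38).

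Mice of the same group also differed from each other, and some of the members moved together. After the group means were removed, the 45 pairs of members were correlated over the 12 libraries, with libraries permuted within their groups in all 1296 arrangements (exact, two-sided). Of these pairs, 38 had a positive r, 9 had p under 0.05 and 4 passed after adjustment over the 45 pairs. The 4 pairs were Fosb with Jun (r = 0.94, rho = 0.92, exact p = 0.000772 for both, the smallest possible, adjusted p = 0.0347 for both), Fos with Fosb (r = 0.95, rho = 0.87, exact p = 0.00154 and adjusted p = 0.0347 for both), Egr1 with Fos (r = 0.95, exact p = 0.00309, adjusted p = 0.0434, and rho = 0.92, exact p = 0.00694, adjusted p = 0.0781) and Fos with Jun (r = 0.95, exact p = 0.00386, adjusted p = 0.0434, and rho = 0.95, exact p = 0.00309, adjusted p = 0.0463). Without the 2 libraries farthest from the median on the x axis, r stayed at 0.91 to 0.95 in these pairs. No pair that includes an NR4A gene, Egr2, Egr3 or Junb passed, and of these Nr4a1 with Junb had the smallest p (r = 0.80, exact permutation p = 0.0193, adjusted p = 0.124).

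Fos, Fosb and Jun together were highest relative to their group in untreated SLE123 replicate 3 (mean deviation 0.50 on the log2 scale), treated B6 replicate 1 (0.34), treated SLE123 replicate 3 (0.29) and untreated B6 replicate 5 (0.27), and lowest in treated SLE123 replicate 1 (-0.52) and untreated SLE123 replicate 1 (-0.42). Fosb had the highest CV of the 10 members in untreated B6, untreated SLE123 and treated SLE123 mice (28.8%, 43.9% and 34.8%), and Fos had it in treated B6 mice (25.0%, with 23.3% for Fosb).

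**Figure D4:**
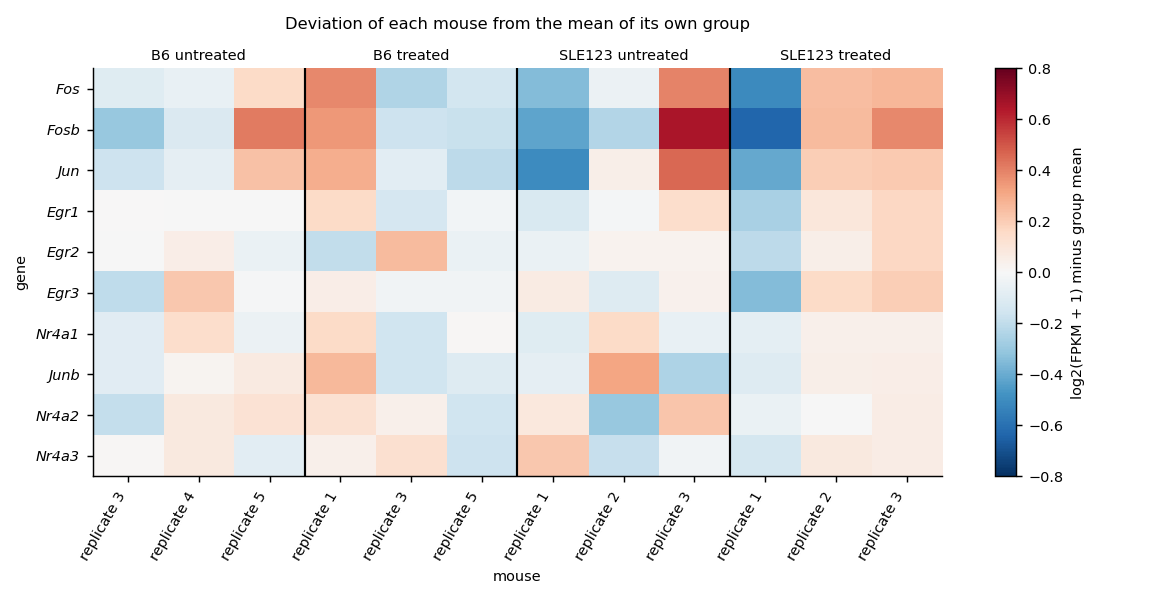
Difference of each mouse from the mean of its own group in log2(FPKM + 1) (colour), for the 10 genes (rows) and the 12 mice (columns, in 4 groups divided by black lines). The rows of Fos, Fosb and Jun change colour together, with untreated SLE123 replicate 3 the reddest and treated SLE123 replicate 1 the bluest of their groups.

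Other genes of the same pathways were taken from 6 lists of 105 genes, of which 102 were tested. In treated against untreated B6 mice, 14 of these were called higher (13.7%, against 8.74% of all genes tested) and 6 were called lower (5.88%, against 6.12%). Without 1 mouse, a setting chosen after the data were seen, 8 to 13 were called higher and 2 to 7 lower. The lowest counts were without untreated replicate 3 (8 and 3) and untreated replicate 4 (12 and 2). Without treated replicate 5 the counts were 9 and 3, and without treated replicate 3 they were 10 and 3, while without untreated replicate 5 they were 13 and 4. The median log2 fold change of the lists was between -0.01 and 0.10, against -0.0024 for all genes. Counts for the lists are on the FPKM scale alone. Nab2, a corepressor that binds EGR proteins, fell with the EGR genes (log2 fold change -0.48, limma adjusted p = 0.00323), and among the partners Batf rose (0.26, limma adjusted p = 0.0426). Of 24 other immediate early genes 4 rose and none fell, among them Klf2, a factor of resting T cells (from a mean of 212 to 353 FPKM, limma adjusted p = 0.000363), Klf6 (59.4 to 102 FPKM), Ier3 (0.830 to 2.57 FPKM) and Nfkbia, the NF-kappaB inhibitor (121 to 170 FPKM). Of the 10 MAP kinase feedback genes, Spry2 rose from 1.63 to 6.12 FPKM (limma adjusted p = 0.000653) and Dusp5 from 19.2 to 22.5 FPKM, while the ERK phosphatase Dusp6 fell from 17.4 to 10.7 FPKM (limma adjusted p = 0.00456) and Spry1 from 3.69 to 2.27 FPKM. Activation targets were split, with Bhlhe40 and the cytokine Ifng up and Tox, Tnf and Cd5 down among 20. Of 22 upstream transducers, Crtc2 and Mrtfa rose. Of 19 heat shock and stress genes, the chaperones Hsph1, Dnaja1 and Hspa8 were called higher and none was called lower. Estimates were positive for 13 of the 19. Hspa1b, which was not called, was at 21.7 to 32.9 FPKM in untreated and 7.17 to 19.1 FPKM in treated B6 mice. These ranges did not overlap.

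In SLE123 mice, 0 of the 102 genes were called between treated and untreated mice. The interaction was called for 7 of them. Spry2 (-1.40), Hsph1 (-1.28), Ier3 (-1.08), Dnaja1 (-0.87) and Dnajb1 (-0.59) had a negative interaction on the log2 scale, that is, a lower change in SLE123 than in B6, and Elk1 (0.65) and Dusp6 (0.63) had a positive interaction (limma adjusted p 0.00178 to 0.0338 for the 7, where 3.64% of all genes tested were called). Spry2, Hsph1, Dnaja1 and Dusp6 were called in each of the 12 repeats that left out a mouse, whereas Ier3 was called in 4, Elk1 in 6 and Dnajb1 in 7 of them. Ier3 was not called without treated SLE123 replicate 1 (adjusted p = 0.0793) or without untreated SLE123 replicate 3 (adjusted p = 0.06). The number of the 102 genes with a positive and a negative called interaction was 10 and 14 without untreated SLE123 replicate 1, 2 and 8 without untreated SLE123 replicate 3, 2 and 4 without treated SLE123 replicate 1, and 1 and 3 without treated SLE123 replicate 2. Markers of other cells also had negative interactions, with 4 of 8 B cell markers (median -2.62), 5 of 6 basophil and mast cell markers (-1.77), 3 of 4 monocyte and macrophage markers (-1.82), 3 of 5 neutrophil markers (-1.76) and 3 of 3 platelet markers (-2.22) called. So were 2 of 3 erythroid (-3.18), 2 of 4 dendritic cell (-0.83) and 2 of 5 NK cell markers (-0.18). Their part in these values was not tested.

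Between the strains, 37 of the 102 genes were called higher and 20 called lower in untreated SLE123 than in B6 mice (36.3% and 19.6%, against 22.8% and 20.1% of all genes tested). In treated mice 35 were called higher and 33 called lower (34.3% and 32.4%, against 29.6% and 22.5%). Without untreated SLE123 replicate 3 the untreated counts were 34 and 16, and without treated SLE123 replicate 1 the treated counts were 37 and 31. The untreated count of lower genes fell to 11 without untreated B6 replicate 5 and to 13 without replicate 3 or replicate 4. Activation targets were mostly higher, 12 of 20 in untreated and 13 of 20 in treated mice (median log2 fold change 0.70 and 0.65, against -0.03 and 0.03 for all genes), with the inhibitory receptor Pdcd1 at a mean of 13.5 FPKM in untreated B6 and 151 FPKM in untreated SLE123 mice (log2 fold change 3.40, limma adjusted p = 8.77e-06), followed by Irf4, Bhlhe40 and Tnfrsf4. Irf4 is also on the plasma cell list, whose 6 markers were all called higher. Other immediate early genes were divided. Ppp1r15a, a stress phosphatase subunit, was lower, with a mean of 116 FPKM in untreated B6 and 28.4 FPKM in untreated SLE123 mice (log2 fold change -1.99, limma adjusted p = 2.47e-05), and Ier5l (2.07), Gadd45b (1.59) and Klf10 (0.96) were higher. Dusp4 (2.36) and Spry1 (1.73) were higher, Dusp5 (-0.71) and Dusp10 (-0.71) lower. The partner genes Batf (1.74) and Jdp2 (0.68) were higher and Fosl1 (-0.33) lower. Of the upstream transducers, the RAS activator Rasgrp1 (-1.54) and the kinase Camk4 (-1.23) were lower. Heat shock and stress genes went both ways, with Hmox1 (2.44), Mt1 (1.83) and Mt2 (1.62) higher and Hspa1b (-1.59) lower, with 8 of the 19 called higher and 4 lower.

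The genes whose pattern over the 12 libraries was most like each family were found by Pearson r with the mean log2(FPKM + 1) of the family, which is a description of likeness that includes the difference between the strains. For the EGR genes these were Ankrd46, Matk and Dhx34 (r = 0.98 for each). Zfyve28 (r = 0.98), Usp11 (r = 0.97) and Gaa (r = 0.95) were closest to the NR4A genes. For the AP-1 genes they were Dusp1, Csrnp1 and Ehmt2 (r = 0.86, 0.85 and 0.85), of which Dusp1 and Csrnp1 are themselves immediate early genes.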

How the data were processed

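Purified CD4+ T cells of 12 mice, 3 in each of 4 groups, gave 1 RNA-Seq library each, and titles set the groups. The authors deposited an FPKM value per Ensembl gene and library. The submitters' processing notes name CASAVA 1.8, STAR and mm10. The counting program and its strand setting are not given in the sources used here. Symbols and positions came from GENCODE M21 (GRCm38), with 97.8% of identifiers matched, and promoter windows from RefSeq (GRCm38.p6).

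Values were transformed as log2(FPKM + 1), which understates the change of low genes. Genes with an average FPKM of 0.5 or more were tested with limma 3.58.1 in R 4.3.3 (lmFit and eBayes with a trend), two-sided, with Benjamini-Hochberg adjustment over all of them. Pairs of groups were compared on their 6 libraries, the interaction on all 12. The steps were tested on simulated data. Recovered fragment counts served for depth and for limma's voom method.

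Named are all members, up to 4 called genes per related list and comparison by size of change, the 3 genes most like each family, and marker genes that moved with a result. Cd5 was named outside this rule to complete a count. The members and gene lists were chosen with earlier results of these data known, so counts over them are no independent evidence. Settings tried in turn were another pseudocount (0.1), a stricter filter (1 FPKM) or none, TPM, median centring, voom, a single fit of 12 libraries, a replicate block and leaving out each mouse.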

Additional observations from a re-analysis of the deposited data

Results flagged for a closer look

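None of the 10 immediate early and NR4A genes was called for a difference between the strains in the response to treatment, except that Egr2 and Egr3 were called after rescaling to TPM and Egr3 without treated SLE123 replicate 1. Of the related genes named above, 7 were called, where 3.64% of all genes tested were called by limma. The change with treatment in SLE123 less the change in B6, on the log2 scale, was -1.40 for Spry2, -1.28 for Hsph1, -1.08 for Ier3, -0.87 for Dnaja1 and -0.59 for Dnajb1, and it was 0.65 for Elk1 and 0.63 for Dusp6. Ier3, Elk1 and Dnajb1 lost their calls in some of the repeats that left out a mouse. Markers of B cells (4 of 8), basophils and mast cells (5 of 6), monocytes and macrophages (3 of 4), neutrophils (3 of 5) and platelets (3 of 3) were also called with a negative interaction. The same held for markers of erythroid cells (2 of 3), dendritic cells (2 of 4) and NK cells (2 of 5). The part of all these cells was not tested. With 3 mice per group, no group was large enough for a test of single outlying mice.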

How the results depend on the processing

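No member called in the 4 comparisons of pairs of groups changed direction under any setting tried, and its call was lost in 22 of 70 settings for B6 treatment, 2 of 52 for untreated strains and 21 of 112 for treated strains. Values that changed sign all belonged to members without a call. Where a count or sign changed, the cause was not tested unless fewer libraries or genes were used. With all 12 libraries in one fit, 815 genes and 3 members were called for B6 treatment (1948 and 5 otherwise) and 53 genes for SLE123 treatment (5 otherwise). For SLE123 treatment, 1 gene was called with no filter, 21 after rescaling to TPM and 3 by voom, none of them members.

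Rescaling to TPM moved the median log2 fold change of all genes to -0.38 for untreated strains, -0.14 for treated strains, 0.22 for SLE123 treatment and 0.23 for the interaction, so values on that scale are to be read against these shifts. The share of called genes that were higher went from 53.2% to 24.3% for untreated strains and from 56.8% to 35.3% for treated strains, and median centring took it from 34.7% to 20.5% for the interaction. On the TPM scale, SLE123 treatment gave 0.093 for Egr1, 0.023 for Egr2, 0.067 for Fos, 0.16 for Fosb and 0.059 for Junb, and untreated strains gave -0.20 for Nr4a3, -0.24 for Egr3, -0.024 for Fos and -0.17 for Jun. The interaction was then 0.11 for Nr4a1, 0.019 for Nr4a2 and 0.18 for Fosb, and 2 members were called, Egr2 and Egr3. Median centring gave -0.039 for Egr3 in SLE123 treatment.

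Equal replicate numbers were checked as a possible pairing. The deviations of mice with the same number correlated at -0.14 and -0.094 in B6 and at 0.14, -0.16 and 0.27 in SLE123. Between treated strains they correlated at 0.065 and 0.14. So few values, from 3 mice per group, cannot decide whether mice were paired. With a replicate block, 0 genes and 0 members were called for B6 treatment (2 shared numbers), 4 genes and 0 members for SLE123 treatment, 3414 genes and 3 members (Nr4a2, Egr1 and Egr2) for treated strains, and 34 genes and 0 members for the interaction. Jun was then at -0.091 for B6 treatment and Fosb at 0.21 for the interaction. Untreated strains share a single number and were not blocked.

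Leaving out each mouse in turn gave 675 to 1393 genes and 1 to 6 members for B6 treatment, 1 to 7 genes and 0 members for SLE123 treatment, 3672 to 6469 genes and 3 to 6 members for untreated strains, 5524 to 6685 genes and 4 to 7 members for treated strains, and 205 to 2917 genes and 0 to 1 members for the interaction. The 2917 genes were called without untreated SLE123 replicate 1, and the 1 member, Egr3, without treated SLE123 replicate 1. Log2 fold changes that changed sign ranged as follows. B6 treatment gave -0.054 to 0.21 for Jun and -0.18 to 0.20 for Fosb. SLE123 treatment gave -0.18 to 0.035 for Egr1, -0.30 to 0.13 for Fos, -0.24 to 0.30 for Fosb, -0.091 to 0.18 for Egr3, -0.084 to 0.18 for Nr4a2, -0.26 to 0.025 for Junb and -0.47 to 0.016 for Jun. Jun ranged from -0.017 to 0.47 for untreated and from -0.20 to 0.11 for treated strains. The interaction ranged from -0.23 to 0.31 for Fosb and from -0.25 to 0.0068 for Nr4a2.

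Of the 5 members called in B6, the SLE123 intervals held the B6 estimates of Nr4a3 and Junb, so a change of that size was not excluded there. They did not hold those of Egr2 and Egr3, nor narrowly that of Egr1 (lower end -0.404, B6 estimate -0.411). The B6 estimates have intervals of their own, and with all mice on the FPKM scale no interaction was called for these 5. For Egr1 the interaction had an interval of -0.03 to 0.66, so a B6-sized change is not excluded there. The interaction intervals of Egr2 (0.14 to 0.87) and Egr3 (0.20 to 1.07) held positive values alone, without adjustment over the genes tested. After adjustment neither was called (limma adjusted p = 0.106 and 0.0942). A B6-sized change of Egr2 or Egr3 thus lay outside the unadjusted intervals, while the adjusted test did not establish a difference between the strains. Nr4a2 rests on the fewest fragments, from 46 in a library.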
